A study of Mus musculus with 16 samples.

Results

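Gas5, Snhg1, Snhg3 and Snhg12 are noncoding genes that carry small nucleolar RNAs (snoRNAs) in their introns. They were taken by identifier from the deposited gene counts: ENSMUSG00000053332 for Gas5, ENSMUSG00000108414 for Snhg1, ENSMUSG00000085241 for Snhg3 and ENSMUSG00000086290 for Snhg12, 4 of 54446 mouse identifiers. All 4 passed the filter on low counts, which kept 27488 identifiers. The libraries hold newly made RNA from mouse embryonic stem cells of the strain C57BL/6, a self-renewing cell type grown here in serum with LIF, CHIR99021 and PD0325901. The cells were either Control or Mettl14 CKO, in which the gene for METTL14, the partner of METTL3 in the complex that methylates adenosines of messenger RNA, was conditionally knocked out. How the deletion was brought about, and which alleles the Control cells carry, the sources used here do not give. Cells were given 0.5 mM EU (5-ethynyl uridine, which polymerases use in place of uridine) for 10, 20, 30 or 60 min, from plates seeded 48 h earlier, and the EU-carrying RNA was captured by click chemistry. Every genotype has 2 libraries at every EU time, which makes 8 groups and 16 libraries. The comparison asks how the captured level of each RNA differs with loss of Mettl14, and does not separate synthesis from decay. Nothing in the labels ties the 2 libraries of a group to separate cultures, and the p-values may then measure technical spread alone.

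The snoRNAs of such host genes are cut out of the spliced introns and guide the 2′-O-methylation (C/D box type) or pseudouridylation (H/ACA box type) of ribosomal RNA. The joined exons have little coding capacity, and many host transcripts are bound by ribosomes in the cytoplasm and destroyed there by nonsense-mediated decay, so that they are made fast and lost fast. Host genes of this kind typically start transcription within a run of pyrimidines, the 5′ terminal oligopyrimidine tract that they share with ribosomal protein genes. Gas5 was first found among transcripts that accumulate in growth-arrested cells, and in mouse embryonic stem cells it has been described as supporting self-renewal.

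On the GRCm38.p6 assembly, which has the primary sequence of the mm10 build used for the counts, RefSeq places Gas5 at chr1:161034601-161038539, with 8 snoRNA genes inside it, among them the C/D box Snord47 at chr1:161038092-161038156. Snhg1 lies at chr19:8723487-8726326 and also holds 8, with the C/D box Snord22 at chr19:8725866-8725991. Snhg12 lies at chr4:132308678-132311024 and holds 4, the H/ACA box Snora16a, Snora44 and Snora61 and the C/D box Snord99. Snhg3 lies at chr4:132351933-132353686 and holds 2, the H/ACA box Snora73b and Snora73a, also called U17, which act in the processing of the ribosomal RNA precursor. Snhg12 and Snhg3 are thus near neighbours, 40908 bases apart on opposite strands, with Trnau1ap and Rcc1 between them. Gas5 shares 264 bases with Zbtb37, on the opposite strand. The sources used here do not give the strand setting of the authors' counting, and reads from this stretch cannot be assigned with certainty. The other hosts overlap no gene of the RefSeq table apart from their snoRNAs. The snoRNAs themselves were not analysed here because the deposited identifiers could not be paired with symbols, and whether their reads count towards the host is not known.

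The start sites are shown as background. The values here are levels of captured RNA and not a measure of promoter output alone. Each line gives 60 bases before and 40 bases from the annotated first base onward, from RefSeq on GRCm38.p6, read on the strand of the gene. Capitals mark the letters TATA where they lie 45 to 20 bases before the start, and the longest run of C and T in the stretch from 10 bases before to 20 bases after the start.
Gas5, upstream start, chr1:161034541-161034640, plus strand: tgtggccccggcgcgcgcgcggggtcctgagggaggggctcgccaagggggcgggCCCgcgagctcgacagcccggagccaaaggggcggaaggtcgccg
Gas5, downstream start, chr1:161035106-161035205, plus strand: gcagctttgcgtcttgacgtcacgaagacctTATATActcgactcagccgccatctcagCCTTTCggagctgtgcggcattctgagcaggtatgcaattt
Snhg1, chr19:8723427-8723526, plus strand: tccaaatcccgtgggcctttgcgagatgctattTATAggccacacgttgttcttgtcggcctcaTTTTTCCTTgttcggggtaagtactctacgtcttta
Snhg12, chr4:132308618-132308717, plus strand: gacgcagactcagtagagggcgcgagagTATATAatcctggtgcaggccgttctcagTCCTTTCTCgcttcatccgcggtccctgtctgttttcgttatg
Snhg3, chr4:132353647-132353746, minus strand: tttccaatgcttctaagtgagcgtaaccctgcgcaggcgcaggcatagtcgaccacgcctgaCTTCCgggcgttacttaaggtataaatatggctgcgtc

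The letters TATA, which read the same on both strands, were found in that stretch at the downstream Gas5 start, at Snhg1 and at Snhg12. Of the 32851 promoters in the RefSeq table, 6.17% hold TATA at this distance. At Snhg3 the nearest TATA begins 22 bases after the annotated start, outside the stretch searched. The longest run of C and T in its stretch was 9 bases at Snhg1 and at Snhg12, a length reached by 7.11% of the promoters. It began 3 bases before the annotated start at Snhg12 and 4 bases after it at Snhg1. At the downstream Gas5 start it was 6 bases (28.7% of promoters reach this), from 1 base before the start. At Snhg3 it was 5 bases (46.4%), from 2 bases after the start. At the upstream Gas5 start it was only 3 bases, which 88.3% of promoters reach, and it ended before the start. Only at Snhg12 and at the downstream Gas5 start did the run span the annotated start. The motifs were chosen after these sequences had been seen, and a match is not evidence of use.

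The libraries held 5109162 to 28502750 mouse counts, and ERCC spike-in counts, from synthetic RNAs added after the capture, made up 0.643% to 7.97% of each total. Both CKO 30 min libraries stand apart: they are the shallowest, with 5188643 and 5109162 mouse counts, yet they detected 30583 and 31826 identifiers, more than the 26857 of the highest other library. The overall effect, the test of genotype by EU time and the spike-in scaled level are given with and without the 30 min libraries, and the values at 30 min rest on them. All other comparisons were fitted with them in the model. With the CKO 30 min libraries left out, the same host RNAs had an edgeR adjusted p under 0.05 at 10, 20 and 60 min. The same held from 10 to 60 min in each genotype. In these fits 489 to 5748 of 20647 identifiers had one. Counting error, as the half-width of a 95% exact Poisson interval, was at most 3.65% of the value for Gas5, 5.95% for Snhg1, 8.31% for Snhg12 and 19.6% for Snhg3. It does not cover duplicated PCR reads. The level of Mettl14 and markers of embryonic stem cells or other cell types were not analysed here, for want of symbols.

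Levels are given as CPM, counts scaled to a library of 1000000 mouse counts, after TMM scaling, edgeR's correction for differences in library make-up, and so as shares of the captured RNA. They are not per length, and no level is compared between genes. For Gas5 the Control libraries had 750.2 and 718 CPM at 10 min, 808 and 857 at 20 min, 960.0 and 922 at 30 min, and 558 and 556 at 60 min. Those of CKO had 752 and 874 CPM at 10 min, 745 and 780.2 at 20 min, 465 and 491 at 30 min, and 946 and 665 at 60 min. The Control share was thus highest at 30 min and lowest at 60 min, and in CKO the 30 min libraries were the lowest. In the order of the group means, Control 30 min stood first, though the first CKO 60 min library, at 946, lay above its second, at 922. CKO 30 min stood last, below every other library. Control 60 min came next to last, and the 5 groups between overlapped their neighbours in the order.

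Snhg1 followed the same course. Its Control libraries had 358 and 366 CPM at 10 min, 374 and 375 at 20 min, 450.4 and 439 at 30 min, and 253 and 247 at 60 min. Its CKO libraries had 366 and 432 CPM at 10 min, 349 and 353 at 20 min, 176 and 186 at 30 min, and 357 and 295 at 60 min. Control 30 min was again the highest group, followed by CKO 10 min, Control 20 min, Control 10 min, CKO 20 min, CKO 60 min, Control 60 min and CKO 30 min. CKO 10 min overlapped Control 20 min, and CKO 20 min overlapped CKO 60 min. The other neighbours in the order did not overlap.

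For Snhg12 the Control libraries had 162 and 159 CPM at 10 min, 181 and 200.1 at 20 min, 200.1 and 185 at 30 min, and 128 and 121 at 60 min. Its CKO libraries had 171 and 176 CPM at 10 min, 177 and 176 at 20 min, 90.8 and 96.4 at 30 min, and 185 and 134 at 60 min. The 2 highest groups, Control 30 min and Control 20 min, overlapped, as did Control 10 min and CKO 60 min. The CKO 60 min libraries, at 185 and 134, also overlapped Control 20 min, CKO 20 min and CKO 10 min. Control 60 min and CKO 30 min were again the lowest, without overlap between them.

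Snhg3 had another order. Its Control libraries had 48.4 and 55.5 CPM at 10 min, 51.8 and 58.6 at 20 min, 39.7 and 41.4 at 30 min, and 40.2 and 44.0 at 60 min. Its CKO libraries had 104 and 93.3 CPM at 10 min, 56.9 and 54.97 at 20 min, 16.8 and 22.7 at 30 min, and 27.0 and 41.4 at 60 min. CKO 10 min was the highest group, above every other library, and CKO 30 min the lowest. CKO 20 min, Control 20 min and Control 10 min overlapped their neighbours, as did Control 60 min, Control 30 min and CKO 60 min.

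**Figure D1:**
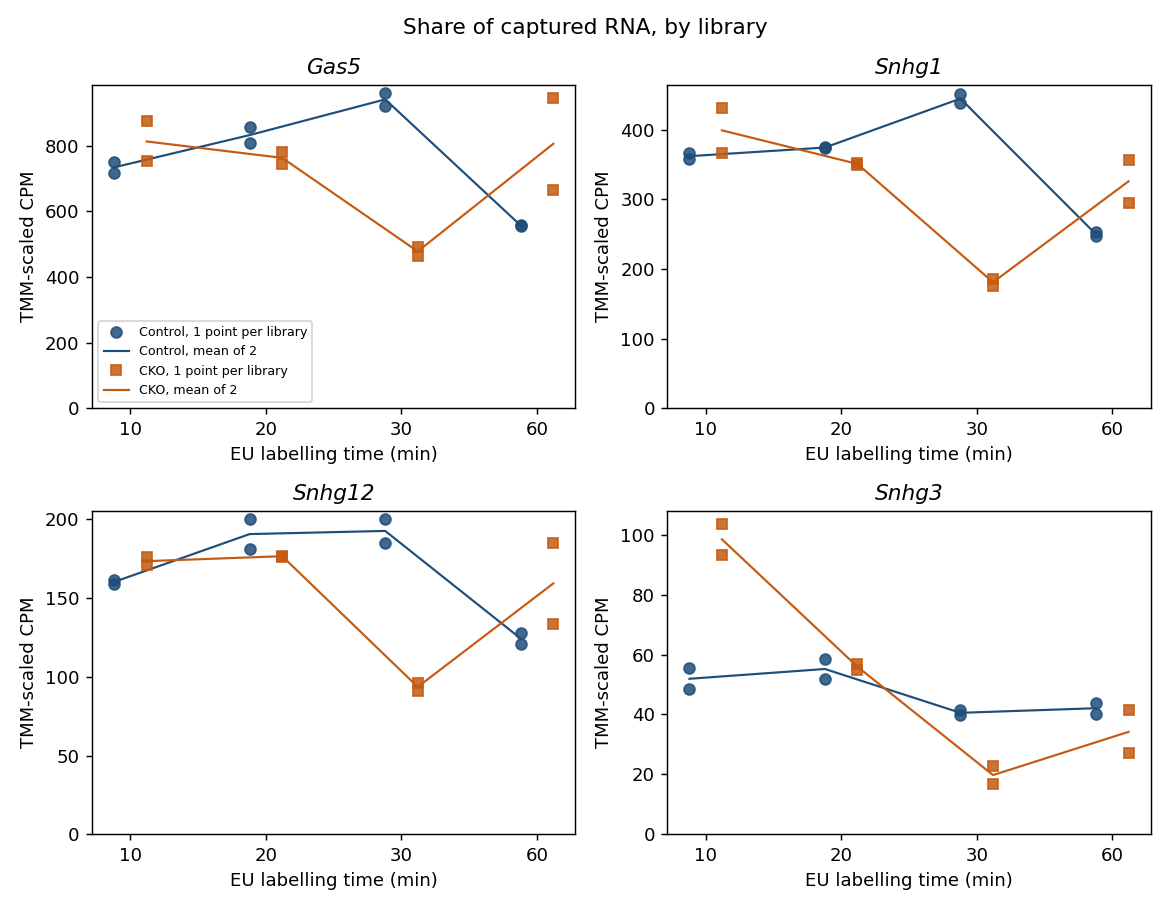
TMM-scaled CPM (y axis, linear from 0) of each host RNA against EU labelling time (x axis, min, evenly spaced categories), with 1 point per library and lines through the means of 2 libraries for Control (circles) and CKO (squares). Gas5, Snhg1 and Snhg12 have their highest Control group at 30 min and their lowest CKO group there, while Snhg3 is highest in the CKO 10 min libraries, at 104 and 93.3 CPM.

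The clearest difference between the genotypes after the shortest pulse was in Snhg3. At 10 min its share of the captured RNA was 98.5 ± 7.37 CPM in CKO and 51.9 ± 5.03 in Control (SD, n = 2 each), which is a rise of 1.90-fold. The log2 fold change was 0.92 (SE 0.17, edgeR quasi-likelihood test, Benjamini-Hochberg adjusted p = 0.000495), and the libraries of the genotypes did not overlap. Gas5, Snhg1 and Snhg12 had log2 fold changes of 0.15 (SE 0.10), 0.14 (SE 0.09) and 0.11 (SE 0.11), with edgeR adjusted p of 0.408, 0.356 and 0.613. One host RNA of 4 was thus called at 10 min, where 11.8% of all identifiers tested were. With a stricter filter, of at least 10 CPM in at least 2 libraries, 3470 of 12005 identifiers were called at 10 min, and Snhg3 alone of the 4. The value for Snhg3 was 0.89 with the 30 min libraries left out (edgeR adjusted p = 0.000729). Leaving out 1 library at a time gave 0.83 to 1.03 with the same identifiers tested, and the call was kept each time.

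At 20 min no host RNA differed detectably. The log2 fold changes were −0.13 (SE 0.10) for Gas5, −0.09 (SE 0.09) for Snhg1, −0.11 (SE 0.11) for Snhg12 and 0.02 (SE 0.17) for Snhg3, with edgeR adjusted p of 0.965 for Gas5 and 1 for the others. With edgeR 0 of 4 were called, 0 had an unadjusted p under 0.05, and DESeq2 also called 0, where 0.96% of all identifiers were called by edgeR. In a fit of the 4 libraries of this EU time alone, which called 12.9% of 18189 identifiers, Gas5 was called lower, at −0.12 (edgeR adjusted p = 0.0207).

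At 30 min all 4 fell in CKO. The log2 fold change was −0.98 (SE 0.11) for Gas5, −1.30 (SE 0.09) for Snhg1, −1.04 (SE 0.12) for Snhg12 and −1.04 (SE 0.19) for Snhg3. The edgeR adjusted p were 6.07e-08, 9.06e-11, 1.32e-07 and 0.000121 in the same order, and no CKO library overlapped a Control library for any of them. The background was high, with 48.5% of all identifiers called. The median over all identifiers was 0.61, so that TMM did not centre this comparison over all of them. With the stricter filter the median was 0.02, and 5903 of 12005 identifiers were called. The host RNAs then ran from −0.97 (Snhg1) to −0.65 (Gas5), all 4 called. With library totals in place of TMM the median was 0.91. There the values ran from −0.99 (Snhg1) to −0.67 (Gas5), and all 4 stayed called. The comparison rests on the CKO 30 min libraries that detected the most identifiers from the fewest counts. The part of that difference in the result was not tested, and the fall cannot be given without them.

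At 60 min Gas5 and Snhg1 rose in CKO. Gas5 was at 806 ± 199 CPM in CKO and 557 ± 1.06 in Control (SD, n = 2 each). Its log2 fold change was 0.53 (SE 0.10, edgeR adjusted p = 0.00336). Snhg1 was at 326 ± 43.9 CPM in CKO and 249.8 ± 3.96 in Control, a log2 fold change of 0.38 (SE 0.09, edgeR adjusted p = 0.0171). For both, the lower CKO library still lay above both Control libraries. The SE comes from a spread shared by all 8 groups. A fit of the 4 libraries of this EU time alone called 9.44% of 18468 identifiers. There Gas5 was not called (0.53, edgeR adjusted p = 0.133) and Snhg1 was (0.38, edgeR adjusted p = 0.044). In the fit of all 16 libraries Snhg12 had a log2 fold change of 0.36 (SE 0.11, edgeR adjusted p = 0.106) and Snhg3 of −0.30 (SE 0.17, edgeR adjusted p = 0.667). So 2 of 4 were called at 60 min, against 2.63% of all identifiers. With the stricter filter the same 2 were called, and 964 of 12005 identifiers. Both calls were lost without the first CKO library or either Control library of this EU time, in fits that kept the same 27488 identifiers. Without the first CKO library Gas5 was at 0.26 (edgeR adjusted p = 0.276) and Snhg1 at 0.24 (edgeR adjusted p = 0.537). Without either Control library the edgeR adjusted p was 0.0789 or 0.075 for Gas5 and 0.194 or 0.25 for Snhg1. Snhg12 was called higher without the second CKO 60 min library, at 0.57 (edgeR adjusted p = 0.000961), and without the first or the second CKO 30 min library, at 0.32 each (edgeR adjusted p = 0.0246 and 0.0247).

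**Figure D2:**
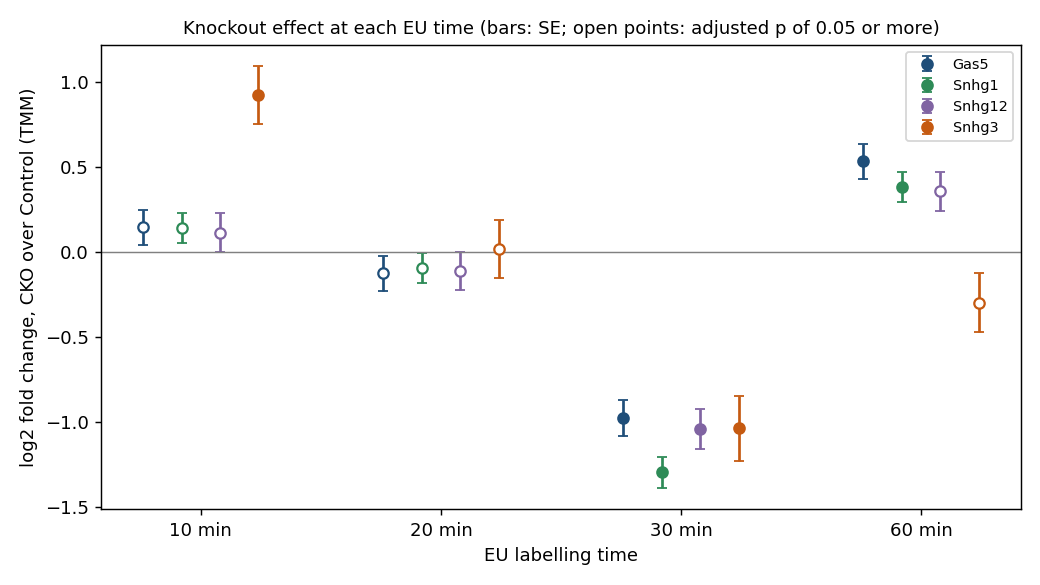
Log2 fold change of CKO over Control (y axis, TMM scaling) at each EU time (x axis) for the 4 host RNAs, with bars of 1 standard error from the F statistic. Filled points have an edgeR adjusted p under 0.05. Snhg3 is called higher at 10 min (0.92), all 4 lower at 30 min, and Gas5 (0.53) and Snhg1 (0.38) higher at 60 min.

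The knockout effect changed with EU time for all 4 RNAs, where 22.7% of all identifiers were called. With the stricter filter all 4 were called, and 4441 of 12005 identifiers. The F statistic with 3 degrees of freedom was 37.8 for Gas5 (edgeR adjusted p = 2.96e-07), 65.2 for Snhg1 (4.08e-09), 27.6 for Snhg12 (2.41e-06) and 20.4 for Snhg3 (2.05e-05). Without the 30 min libraries, where 5.58% of 20204 identifiers were called, Snhg3 stayed called, with F = 15.1 (edgeR adjusted p = 0.0103). The F of Gas5 was then 8.32, that of Snhg1 7.02 and that of Snhg12 4.13, with edgeR adjusted p of 0.0529, 0.0792 and 0.21. With only the CKO 30 min libraries left out, Gas5 was called beside Snhg3, at F = 8.11 (edgeR adjusted p = 0.0429), where 1505 of 20647 identifiers were. Averaged over the EU times, in an additive model, effects of opposite sign met. The overall log2 fold changes were −0.10 (SE 0.15) for Gas5, −0.20 (SE 0.16) for Snhg1, −0.16 (SE 0.14) for Snhg12 and −0.08 (SE 0.18) for Snhg3, with edgeR adjusted p of 0.702, 0.431, 0.487 and 0.822. EdgeR called 0 of 4, 0 had an unadjusted p under 0.05 and DESeq2 called 0, against 11.5% of all identifiers with edgeR. Without the 30 min libraries all 4 signs turned, to 0.17, 0.13, 0.11 and 0.20 in the same order, with edgeR adjusted p of 0.29 to 0.486.

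From 10 to 60 min of labelling, 3 of the 4 lost share in Control cells, where 10.1% of all identifiers were called in either direction. With the stricter filter the same 3 were called, and 3129 of 12005 identifiers. The log2 change was −0.40 (SE 0.10) for Gas5 (edgeR adjusted p = 0.0107), −0.54 (SE 0.09) for Snhg1 (0.000144) and −0.37 (SE 0.11) for Snhg12 (0.0366), and −0.30 (SE 0.17) for Snhg3 (0.329). The median over all identifiers was 0. Snhg1 was called without each library in turn. With the same identifiers tested, the edgeR adjusted p of Gas5 was 0.0524 to 0.109 without any one of the 4 Control libraries at 10 or 60 min. That of Snhg12 was 0.051 to 0.295 in 9 of the 16 fits that left out 1 library: those without any one of the Control libraries of 10, 20 or 60 min, the first of Control 30 min or either of CKO 20 min. In CKO cells 2 of 4 were called lower at 60 min, against 15.2% of all identifiers. With the stricter filter the same 2 were called, and 4361 of 12005 identifiers. Snhg3 fell by 1.52 on the log2 scale (SE 0.17, edgeR adjusted p = 3.26e-07), to 0.348 of its 10 min share, and leaving out 1 library at a time gave −1.87 to −1.25. Snhg1 had −0.29 (SE 0.09, edgeR adjusted p = 0.0261), and its call was lost without the second library at 10 min (0.309) or the second at 60 min (0.379). Gas5 had −0.01 (SE 0.10) and Snhg12 −0.12 (SE 0.11), with edgeR adjusted p of 1 and 0.567. Without the first CKO 60 min library both were called lower, at −0.29 (edgeR adjusted p = 0.0238) and −0.38 (0.0203).

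The ratio of host RNAs within a library does not depend on scaling. Across the 16 libraries the count ratio of Snhg12 to Gas5 lay between 0.195 and 0.238, a 1.22-fold range, and that of Snhg1 to Gas5 between 0.377 and 0.511, a 1.35-fold range. The ratio of Snhg1 to Gas5 was lowest in the CKO libraries at 30 min, 0.379 and 0.378 against 0.469 and 0.476 in Control, and in the first CKO library at 60 min. The ratio of Snhg3 to Gas5 ran from 0.0285, in the first CKO 60 min library, to 0.138, in the first CKO 10 min library, a 4.84-fold range. The neighbours on chr4 parted as well: the ratio of Snhg12 to Snhg3 ran from 1.65 to 6.86. Relative to the Control 10 min mean, the log2 ratio of Snhg3 to Gas5 was 0.97 and 0.60 in the CKO 10 min libraries and within 0.17 of 0 in the Control libraries at 10, 20 and 60 min. At 30 min it was −0.77 and −0.65 in Control and −0.97 and −0.61 in CKO, so both genotypes had a low ratio there.

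**Figure D3:**
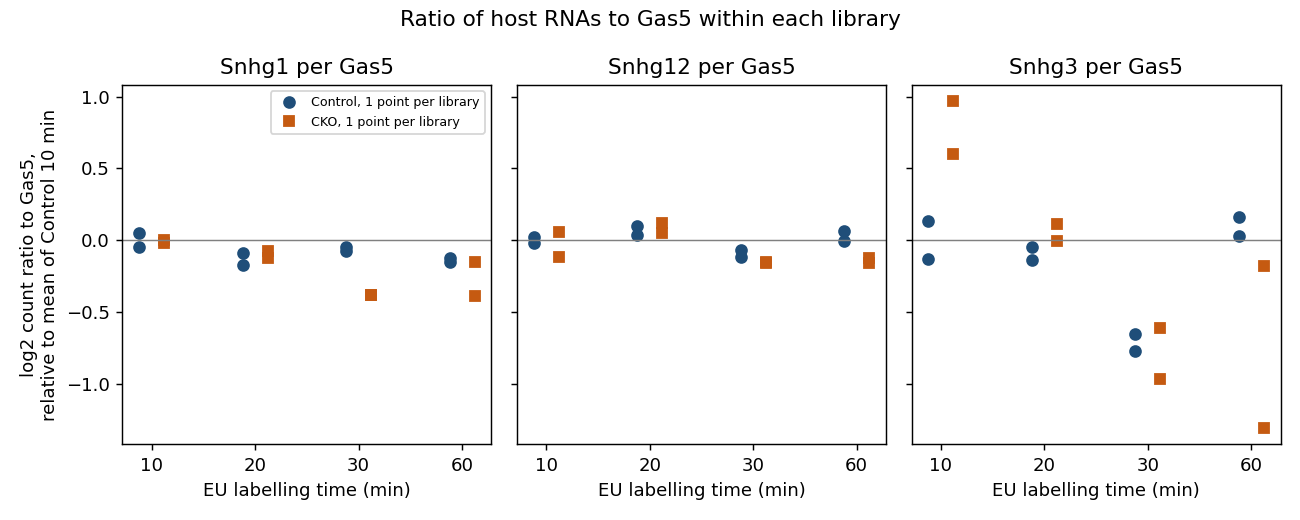
Log2 of the count ratio to Gas5 in each library, set to 0 at the mean of the Control 10 min libraries (y axis), against EU labelling time (x axis, min, evenly spaced categories) for Snhg1, Snhg12 and Snhg3. Each point is 1 library of Control (circles) or CKO (squares). Snhg1 and Snhg12 stay between −0.39 and 0.12, while Snhg3 reaches 0.97 in a CKO 10 min library and −1.31 in a CKO 60 min library.

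Across the 14 libraries other than CKO 30 min, the log2 CPM of Gas5 and Snhg12 correlated with Pearson r = 0.932. Each was the row most like the other among 5825 rows whose mean log2 CPM reached 5. Snhg1 was the second most like Gas5, with r = 0.919. The row most like Snhg1 was ENSMUSG00000057666 (r = 0.943), which was also the third most like Gas5 (0.902) and the second most like Snhg12 (0.911). Snhg3 had r = 0.00 with Gas5, 0.263 with Snhg1 and 0.151 with Snhg12, and its most similar row was ENSMUSG00000022322 (r = 0.941). With all 16 libraries these 3 correlations of Snhg3 were 0.505, 0.682 and 0.632. The points share library depth and scaling, and the correlations are descriptions of these libraries.

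On the spike-in scale, in counts per 1000 ERCC counts, the levels also carry cell number, recovery and capture yield, since the spike-in entered after capture. In Control cells Gas5 was at 8.82 ± 0.0396 at 10 min (SD, n = 2), 36.8 ± 1.61 at 20 min, 76.8 ± 1.29 at 30 min and 70.0 ± 0.933 at 60 min. It was thus no higher at 60 min than at 30 min: the level at 60 min was 0.911 of that at 30 min, with no overlap between the libraries, while all mouse counts grew 1.61-fold over this step. Snhg1 stood at 0.865 and Snhg12 at 0.994 of their 30 min levels. Of 9483 identifiers with a mean of at least 10 CPM, whose median growth over this step was 1.62-fold, 2.25% grew as little as Gas5 or less, 1.79% as little as Snhg1 and 3.26% as little as Snhg12. Snhg3 grew 1.60-fold from 30 to 60 min, from 3.31 ± 0.250 to 5.29 ± 0.275 (SD, n = 2 each), close to that median. From 20 to 30 min Snhg3 had instead grown the least of the host RNAs, 1.36-fold, which 5.96% of 9482 identifiers did not exceed. Gas5 had grown 2.08-fold, Snhg1 2.19-fold and Snhg12 1.86-fold, against a median of 1.86-fold. From 10 to 60 min Gas5 grew 7.93-fold, Snhg1 7.21-fold, Snhg12 8.11-fold and Snhg3 8.45-fold, all below the median of 11.04-fold. The contrast of Snhg3 with the other host RNAs in Control thus rests on the 30 min level.

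In CKO cells Gas5 was at 24.6 ± 5.26 counts per 1000 ERCC counts at 10 min (SD, n = 2), 44.6 ± 1.08 at 20 min, 37.1 ± 12.2 at 30 min and 102.9 ± 13.0 at 60 min. At 60 min its CKO libraries, 112 and 93.7, lay above the Control libraries, 70.6 and 69.3. The CKO level of Snhg1 at 60 min was 1.34-fold that of Control and that of Snhg12 1.30-fold, against 1.07-fold for all mouse counts, in each case with no overlap between libraries. That of Snhg3 was 0.854 of Control, with overlap. The edgeR test with ERCC scaling called none of the 4 at 60 min: Gas5 was at 0.56 (edgeR adjusted p = 1, unadjusted 0.0211), the only one with an unadjusted p under 0.05, and 0.0437% of all identifiers were called. At 10 min the CKO level was 2.79-fold that of Control for Gas5, 2.78-fold for Snhg1 and 2.71-fold for Snhg12, close to the 2.64-fold of all mouse counts. For Snhg3 it was 4.72-fold, with 2.88 and 3.02 in CKO against 0.567 and 0.684 in Control. Snhg3 then grew only 1.53-fold from 10 to 60 min in CKO, and 1.10% of the 9483 identifiers grew as little or less, while in Control it grew 8.45-fold. The 1.53-fold rests on CKO 60 min libraries that lay far apart, at 3.20 and 5.83, a mean of 4.515 ± 1.86 (SD, n = 2). At 30 min the CKO level was 0.483 of Control for Gas5, 0.387 for Snhg1, 0.462 for Snhg12 and 0.448 for Snhg3, against 0.788 for all mouse counts.

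**Figure D4:**
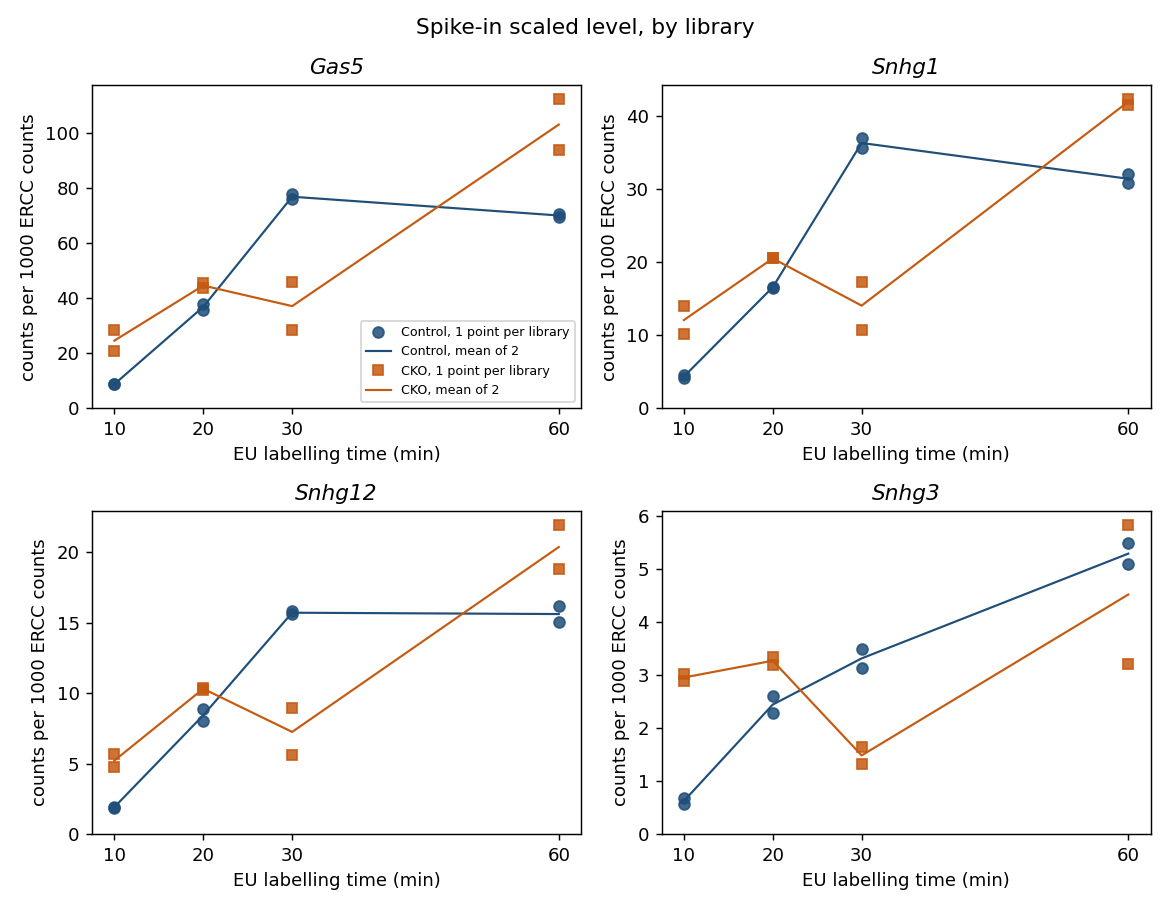
Counts per 1000 ERCC counts (y axis, linear from 0) of each host RNA against EU labelling time (x axis, min, to scale), with 1 point per library and lines through the means of 2 libraries for Control (circles) and CKO (squares). In Control, the means of Gas5, Snhg1 and Snhg12 are no higher at 60 min than at 30 min, whereas Snhg3 goes on to 5.29; in CKO, Snhg3 is already at 2.95 after 10 min.

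Over the whole series the spike-in scaled difference between genotypes did not pass the threshold for any host RNA. Averaged over EU times the log2 difference was 0.30 for Gas5, 0.19 for Snhg1, 0.24 for Snhg12 and 0.30 for Snhg3, with exact permutation p, two-sided with genotype permuted within EU time, of 0.307, 0.532, 0.417 and 0.407. After Benjamini-Hochberg adjustment over all identifiers these were 0.471, 0.674, 0.575 and 0.567, and 17% of all identifiers were called. Without the 30 min libraries the differences were 0.76 for Gas5, 0.73 for Snhg1 and 0.70 for Snhg12, each with an exact permutation p of 0.00926 (adjusted p = 0.0405), and 0.79 for Snhg3 (0.148, adjusted 0.263). That p is the smallest the 216 assignments allow, 22.9% of all identifiers share it, and the median difference over all of them was 0.64. The slope of the level on EU minutes in counts per 1000 ERCC counts per min was 1.11 ± 0.385 in Control and 1.54 ± 0.242 in CKO for Gas5 (SE, n = 8 each), and 0.0869 ± 0.00959 and 0.0312 ± 0.0246 for Snhg3. Snhg1 had slopes of 0.492 ± 0.187 and 0.579 ± 0.112, and Snhg12 of 0.247 ± 0.0742 and 0.288 ± 0.0543. A straight line describes the Control course of Gas5, Snhg1 and Snhg12 poorly, given their levels at 30 and 60 min. The exact permutation p of the slope difference were 0.38 for Gas5, 0.528 for Snhg1, 0.602 for Snhg12 and 0.102 for Snhg3, and after adjustment 0.932, 1, 1 and 0.612. Without the second CKO 60 min library the slope difference of Snhg3 was −0.0913 (exact permutation p = 0.00154, the smallest possible; adjusted p = 0.0171), in a fit that called 13.3% of all identifiers. With all 16 libraries 0% were called for the slope, with 2929 of 27488 at an unadjusted p under 0.05. The 30 min libraries carry no weight in this slope. The smallest exact permutation p was then 0.00926, shared by 1378 identifiers, as in a fit without the 30 min libraries.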

How the data were processed

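Each library's deposited table holds unnormalised read counts for 54446 mouse identifiers and 92 ERCC spike-ins. The tools named per the submitters' processing notes are HTSeq, HISAT2 2.1.0, Trimmomatic 0.38 and CASAVA, with the build mm10. The sources used here do not give the annotation, strand setting or feature counted, and the labels name both total and polyA RNA. Counts were tested with edgeR 4.0.16 in R 4.3.3 (robust quasi-likelihood fit, TMM, filterByExpr by group, Benjamini-Hochberg over 27488 identifiers, threshold 0.05). The overall effect was fitted with genotype added to EU time, all other contrasts from 8 group means, each fitted on all 16 libraries. Only the test of the overall effect was checked on simulated data. Standard errors follow from the F statistic. Spike-in scaled values are counts divided by ERCC counts, with 0.5 added to the count before log2 for the level and nothing for the slope. They were tested over all 1296 assignments of genotype within EU time, with a smallest possible exact permutation p of 0.00154 for the level. The slope gives the 30 min libraries no weight, since 30 min is the mean EU time. Its smallest exact permutation p was 0.00926, that of 216 assignments. DESeq2 1.42.0, other scalings, filters and left-out libraries were alternatives; leaving out a library with the same identifiers tested was added after seeing the data. The 4 members, their names, the gene lists and the tests were chosen with earlier results of these data known. The rule for naming was all 4 members in every comparison, and for each the rows with the highest correlation, of which 2 identifiers are given. The gene lists (other snoRNA hosts, snoRNP proteins, decay factors, markers) need symbols, and the gene table supplied matched 0 identifiers, so they were not analysed here. Promoter windows were read from RefSeq by symbol, which matched all 4. One annotated overlap is not reported here.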

Additional observations from a re-analysis of the deposited data

Results flagged for a closer look

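The test of genotype by EU time, which asks whether the knockout effect differed between EU times, called all 4 host RNAs and 22.7% of all identifiers. The F was 37.8 for Gas5, 65.2 for Snhg1, 27.6 for Snhg12 and 20.4 for Snhg3 (edgeR, 3 degrees of freedom). Without the 30 min libraries the call was kept for Snhg3 and for none of the other 3, where 5.58% of 20204 identifiers were called. Without the CKO 30 min libraries alone it was kept for Gas5 as well (F = 8.11, edgeR adjusted p = 0.0429), where 1505 of 20647 identifiers were called. What underlies the difference was not tested.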

How the results depend on the processing

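ERCC scaling puts 1 factor per library in place of TMM, and the host RNAs moved alike with it. At 10 min Gas5 moved from 0.15 to 1.48, Snhg1 from 0.14 to 1.47, Snhg12 from 0.11 to 1.44 and Snhg3 from 0.92 to 2.24. The median over all identifiers moved by less, from 0 to 1.14, and why was not tested. The median under ERCC scaling is therefore given beside the values as a description only. Overall that median was 0.60, with Gas5 at 0.33, Snhg1 at 0.23, Snhg3 at 0.29 and Snhg12 at 0.26. At 10 min it was 1.14 and 43.5% of identifiers were called, Gas5 (1.48), Snhg1 (1.47) and Snhg12 (1.44) among them, so 4 of 4. At 20 min it was 0.36, with Gas5 at 0.27, Snhg1 at 0.31 and Snhg12 at 0.29. At 60 min 0 of 4 were called, with Gas5 at 0.56 and Snhg1 at 0.42. From 10 to 60 min it was 3.25 in Control, above Gas5 (2.99), Snhg1 (2.85), Snhg3 (3.08) and Snhg12 (3.02). In CKO it was 2.01, with Gas5 at 2.06, Snhg1 at 1.79, Snhg3 at 0.61 and Snhg12 at 1.96; 4 of 4 and 53% of identifiers were called. Leaving out the 30 min libraries, or the CKO 30 min libraries alone, gave the same overall values, 0.17, 0.13, 0.20 and 0.11. These are not 2 separate checks. With EU time as a factor, the Control 30 min libraries left alone at their EU time carry no information on genotype. The test of genotype by EU time then called 1 or 2 of 4, and 1127 of 20204 or 1505 of 20647 identifiers. Its F was 8.32 or 8.11 for Gas5, which was called only in the second setting, 7.02 or 6.45 for Snhg1 and 4.13 or 3.78 for Snhg12. In fits of 4 libraries alone, Gas5 was called at 20 min (−0.12; 1 of 4) and not at 60 min (0.53; 1 of 4). The spike-in scaled level without the 30 min libraries was 0.763, 0.727 and 0.702 for Gas5, Snhg1 and Snhg12. The slope of log2 level on log2 minutes turned their slope difference, to −0.449, −0.525 and −0.508. With no count filter Snhg12 lost its 10 to 60 min call in Control (−0.34). The cause of these changes was not tested.

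The replicate numbers do not pair the libraries: same-numbered Control and CKO libraries deviated with correlations of −0.005, −0.009, 0.008 and 0.052 at 10, 20, 30 and 60 min. With the replicate block, Snhg12 was called at 60 min (0.35), so 3 of 4, and no other call of a host RNA changed.

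Each library was left out in turn, once with the count filter applied anew, which let up to 33508 identifiers through, and once with the same 27488 identifiers. Over both sets, the overall value of Snhg3 ran from −0.21 to 0.04, with 0 of 4 called throughout. At 10 min Snhg1 ran from 0 to 0.25, and at 20 min Snhg3 from −0.07 to 0.11. At 60 min Gas5 ran from 0.22 to 0.76, Snhg1 from 0.21 to 0.51, Snhg3 from −0.7 to −0.02 and Snhg12 from 0.07 to 0.57, with 0 to 4 called. Snhg1 lost its call in 7 fits with the filter applied anew and in 3 with the same identifiers. Snhg3 was called lower without the second CKO 60 min library only with the filter applied anew. From 10 to 60 min in Control, Gas5 ran from −0.43 to −0.34 and Snhg12 from −0.4 to −0.31, with 1 to 3 called. In CKO, Gas5 ran from −0.29 to 0.22, Snhg1 from −0.44 to −0.16 and Snhg12 from −0.38 to 0.09, with 1 to 4 called. The slope difference ran from −0.0315 to 0.166 for Snhg1, −0.0913 to −0.0403 for Snhg3 and −0.012 to 0.0763 for Snhg12. Depth limits Snhg3 most, with 105 and 142 counts in the CKO 30 min libraries.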

Other observations

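The CKO 60 min libraries disagreed on the host RNAs in opposite directions. Gas5 was at 946 CPM in the first and 665 in the second, and Snhg12 at 185 and 134, whereas Snhg3 was at 27.0 in the first and 41.4 in the second. On the spike-in scale the first library had the higher Gas5 level, 112 against 93.7, and the lower Snhg3 level, 3.20 against 5.83. In the Control libraries at 60 min the same values were 558 and 556 CPM for Gas5 and 40.2 and 44.0 for Snhg3.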
